A study of Mus musculus with 14 samples.

Results

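The 8 genes described here are members of the Ras and Raf families and 1 of their regulators: Hras1 (the name the tables give Hras, encoding H-Ras), Nras, Rras, Rras2, Mras, Araf, Braf and Rasa1. They were chosen by name because the study compared a mammary epithelial cell line with its derivative transformed by H-Ras, and all 8 were found among the 23284 genes listed in each table. The questions were whether the transformed line held more Hras1 mRNA, whether the relatives of Hras1 changed in its presence, and how both behaved under TGF-β and after knockdown of the transcription factors Etv4 and Etv5.

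EpH4 is a mouse mammary gland epithelial cell line, and EpRas cells were derived from it by transformation with H-RasG12V. Untransfected cells of both lines were left untreated or received 1 ng/ml TGF-β3 for 48 h, with 2 libraries for each of these 4 groups (8 libraries). EpRas cells transfected with a negative control siRNA (siNC) or with either of 2 pairs of siRNAs, each pair with 1 siRNA against Etv4 and 1 against Etv5, were cultured with or without TGF-β for the same time, with 1 library for each of these 6 conditions. EpH4 was kept in 10% and EpRas in 4% serum, so the line and the serum cannot be told apart in any comparison of the lines. EpRas is 1 derivative of EpH4, and whether the introduced H-Ras was of mouse or of another species' sequence is not given in the sources used here.

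Ras proteins are small GTPases at the inner face of the plasma membrane. Exchange factors such as Sos load them with GTP when receptors are engaged, GTPase-activating proteins (GAPs) return them to the GDP-bound form, and GTP-bound Ras proteins recruit the Raf kinases, which start the cascade from MEK to ERK. The R-Ras proteins and M-Ras are close relatives with effectors in cell adhesion and in the control of Raf, and mutations that block GTP hydrolysis keep a Ras protein active whatever the level of its mRNA.

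The values are FPKM from Cuffdiff, which scales the fragments of a gene to its transcript length and to the size of the library, so genes can be compared with each other within a library. Read counts are not given. From the spacing of the lowest values, 1 FPKM over 1 kb corresponded to about 3.34 to 7.51 reads in the untransfected libraries and to 6.97 to 12.1 reads in the siRNA libraries, which puts Hras1 at roughly 462 to 2190 reads and Braf at roughly 28.6 to 115 reads per untransfected library, depending on the transcript length assumed. Keratin genes and Epcam marked both lines as epithelial, with summed epithelial markers of 5932 to 11020 FPKM in EpH4 and 2725 to 5613 FPKM in EpRas. Of these 10 markers 8 reached 5 FPKM in EpH4 and 9 in EpRas, with Krt19 listed at 0 in EpH4 and Krt5 at 0 in EpRas. The 9 fibroblast or mesenchymal markers summed to 23.6 to 249.3 FPKM in EpH4, where 3 reached 5 FPKM, and to 926.6 to 1169 FPKM in EpRas, where 2 did. Vim, encoding vimentin, lay between 0.769 and 1.88 FPKM in EpH4 and between 915.5 and 1156 FPKM in EpRas, Col1a1 between 18.7 and 223.5 FPKM and between 1.57 and 2.78 FPKM, and Lum and Thy1 were listed at 0 in both lines. The 6 immune markers summed to 0.292 to 2.75 FPKM in EpH4 and to 3.81 to 7.13 FPKM in EpRas, where Cd68 alone reached 5 FPKM (3.81 to 7.13 FPKM, and 0.292 to 2.75 FPKM in EpH4), while Ptprc, which marks leukocytes, was listed at 0 in all 8 untransfected libraries. The endothelial marker Pecam1 was listed at 0 in all 8 as well, and the 4 endothelial markers summed to 0 to 0.481 FPKM in EpH4 and to 0 to 0.27 FPKM in EpRas. The 4 adipocyte markers summed to 0.537 to 8.13 FPKM in EpH4, where 1 reached 5 FPKM, and to 0.342 to 2.54 FPKM in EpRas, where 0 did. The part of these markers in the differences between the lines was not tested. The comparisons below share libraries with each other and are not independent.

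The promoter windows of Hras1, Rasa1, Araf, Rras and Mras are shown because the siRNAs targeted ETS-family factors, because Hras1 is the gene the question was about, and because the other 4 are those called in a comparison of the lines or of TGF-β. They are RefSeq sequences of the GRCm38.p6 (mm10) assembly, from 250 bases before the annotated start to 50 bases after it, in the direction of transcription, and the capitals mark CCGGAA, the core of an ETS-type site, or its reverse complement TTCCGG. All 8 genes were matched to a window. The windows are chr7:141193955-141194254 (minus strand) for Hras1, chr13:85289437-85289736 (minus strand) for Rasa1, chrX:20848293-20848592 (plus strand) for Araf, chr7:45017692-45017991 (plus strand) for Rras and chr9:99436663-99436962 (minus strand) for Mras.
Hras1: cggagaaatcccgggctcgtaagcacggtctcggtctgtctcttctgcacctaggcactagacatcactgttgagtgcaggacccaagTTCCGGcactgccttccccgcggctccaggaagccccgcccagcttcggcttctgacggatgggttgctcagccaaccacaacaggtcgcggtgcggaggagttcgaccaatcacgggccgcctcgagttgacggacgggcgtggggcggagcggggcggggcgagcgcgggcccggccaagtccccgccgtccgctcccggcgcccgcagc
Rasa1: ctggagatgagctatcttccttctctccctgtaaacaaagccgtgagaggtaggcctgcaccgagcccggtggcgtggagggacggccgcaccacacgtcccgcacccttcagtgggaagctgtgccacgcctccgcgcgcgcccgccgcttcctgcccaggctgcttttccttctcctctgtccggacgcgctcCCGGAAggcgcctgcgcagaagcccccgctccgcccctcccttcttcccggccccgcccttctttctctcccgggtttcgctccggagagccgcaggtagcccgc
Araf: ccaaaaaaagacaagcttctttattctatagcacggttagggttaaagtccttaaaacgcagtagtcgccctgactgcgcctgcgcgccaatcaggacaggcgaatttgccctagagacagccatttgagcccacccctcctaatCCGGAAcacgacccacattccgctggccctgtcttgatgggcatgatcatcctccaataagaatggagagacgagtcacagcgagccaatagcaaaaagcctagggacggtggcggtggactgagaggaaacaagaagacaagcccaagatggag
Rras: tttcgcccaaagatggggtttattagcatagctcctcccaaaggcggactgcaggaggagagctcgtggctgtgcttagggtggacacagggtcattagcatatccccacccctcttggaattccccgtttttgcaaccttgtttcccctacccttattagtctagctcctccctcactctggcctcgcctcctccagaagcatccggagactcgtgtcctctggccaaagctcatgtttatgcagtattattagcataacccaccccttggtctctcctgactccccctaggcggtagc
Mras: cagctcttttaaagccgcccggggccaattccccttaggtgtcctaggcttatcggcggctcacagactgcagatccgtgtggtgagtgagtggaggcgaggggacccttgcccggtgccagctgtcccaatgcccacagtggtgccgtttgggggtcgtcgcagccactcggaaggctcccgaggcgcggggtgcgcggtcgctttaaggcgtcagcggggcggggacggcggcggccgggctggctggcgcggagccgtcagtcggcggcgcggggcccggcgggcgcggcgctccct
CCGGAA, searched on both strands, was present in 3 of the 8 windows (Hras1, Rasa1 and Araf) and in 14.9% of the 32851 mouse promoter windows of the same length. The letters TGACTCA, an AP-1 site, were in 0 of the 8 windows and in 5.2% of all windows, and CAGACA, a Smad-type element, was in 0 of the 8 and in 21.0% of all. These are matches of letters only.

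Hras1, at chr7:141189934-141194004 in the deposited table, was among the most abundant of the 8 mRNAs and did not differ detectably between the lines. In untreated EpH4 cells its 2 libraries held 101 and 103 FPKM, and in untreated EpRas cells 126.5 and 85.9 FPKM. The EpRas libraries lay on either side of both EpH4 libraries, so the groups overlapped. With TGF-β, EpH4 held 96.9 and 102 FPKM and EpRas 104 and 127 FPKM, and here both EpRas libraries were above both EpH4 libraries. By limma on log2(FPKM + 1), where p-values were adjusted (Benjamini-Hochberg) over 9100 genes with 5 FPKM or more in at least 1 library, Hras1 in EpRas differed from EpH4 by 0.03 on the log2 scale without TGF-β (95% interval -0.46 to 0.53, adjusted p = 0.936) and by 0.21 with TGF-β (95% interval -0.29 to 0.70, adjusted p = 0.522). When both conditions were averaged in the same fit, a comparison added after the data had been seen, the difference was 0.12 (95% interval -0.23 to 0.47, adjusted p = 0.569). Without the first untreated EpRas library the untreated difference was -0.24, and without the second it was 0.31, so its direction rests on 1 library.

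The Hras1 row holds 1 value for the mouse locus. Reads of the introduced and of the resident H-Ras gene cannot be told apart in it, and reads of a copy that did not align to mm10 would not be in it. The interval that Cuffdiff gave for Hras1 was wide in each library, for example 57.1 to 196 FPKM and 39.1 to 133 FPKM in the 2 untreated EpRas libraries. Hras1 stood between the percentiles 91.9 and 93.9 of all genes above 0 in the untransfected libraries, and it ranked first or second among the 8 genes in each of them, the other gene at the top being Rras. In bulk RNA, fewer cells that express a gene and less of its RNA per cell cannot be told apart, which holds for all values given here.

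**Figure D1:**
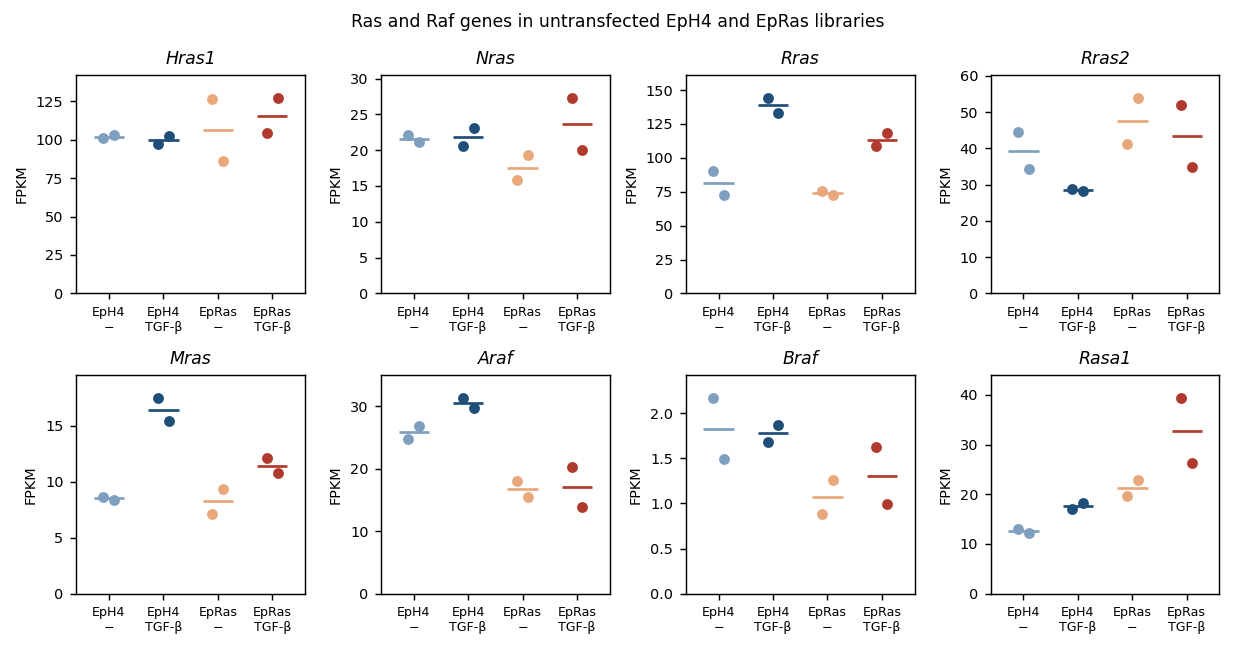
FPKM (linear axes from 0) of the 8 genes in the 8 untransfected libraries, with 1 point per library and a line at the mean of the 2 libraries of each group. Hras1 in EpRas lies on both sides of EpH4 without TGF-β, Rras and Mras are higher with TGF-β in both lines, Araf is lower in EpRas than in EpH4, and Rasa1 is higher.

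Nras, which encodes N-Ras, was less abundant than Hras1 and showed no change that passed the test. Its 2 libraries held 22.1 and 21.1 FPKM in untreated EpH4 and 15.8 and 19.3 FPKM in untreated EpRas. Both untreated EpRas libraries were thus below both EpH4 libraries, but the difference of -0.29 on the log2 scale (95% interval -0.74 to 0.16) did not pass (limma adjusted p = 0.347). With TGF-β the values were 20.6 and 23.1 FPKM in EpH4 and 27.3 and 20.1 FPKM in EpRas, the groups overlapped, and the difference was 0.10 (adjusted p = 0.748).

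Rras encodes R-Ras, a GTPase with a known part in integrin-mediated adhesion, and it rose with TGF-β. In EpH4 its libraries held 90.3 and 72.3 FPKM without and 144 and 133 FPKM with TGF-β. The groups did not overlap, and the rise of 0.77 on the log2 scale (SE 0.16, 1.71-fold between the means) passed the test (limma adjusted p = 0.0286). The call was lost without either untreated EpH4 library (adjusted p = 0.0518 and 0.154 without the first and the second), without either EpH4 library with TGF-β (0.213 and 0.146) in the fit with replicate number as a block (0.0616) and in a fit of only these 2 groups (0.0587). In EpRas the libraries held 75.8 and 72.4 FPKM without and 108 and 118 FPKM with TGF-β. These did not overlap either, but the difference of 0.61 (SE 0.16, 1.53-fold between the means) did not pass the adjusted threshold (adjusted p = 0.113). The TGF-β effects in EpH4 and EpRas were not shown to differ, with a difference between them of -0.17 (95% interval -0.71 to 0.38, limma adjusted p = 0.838). Between the lines Rras differed by -0.12 without and by -0.29 with TGF-β, and neither passed (adjusted p = 0.649 and 0.25).

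Mras, encoding M-Ras, which takes part in a phosphatase complex with Shoc2 that activates Raf, was less abundant than Rras in every library and moved with TGF-β in the same direction. EpH4 held 8.62 and 8.39 FPKM without and 17.4 and 15.4 FPKM with TGF-β, a rise of 0.87 on the log2 scale (SE 0.17, 1.93-fold between the means, limma adjusted p = 0.0224). This call too was lost without either untreated EpH4 library (adjusted p = 0.0953 and 0.115 without the first and the second), without either EpH4 library with TGF-β (0.184 and 0.111) and with the replicate block (0.0554). EpRas held 7.15 and 9.34 FPKM without and 12.1 and 10.7 FPKM with TGF-β, which did not overlap but differed by 0.43 only (SE 0.17, adjusted p = 0.28). The difference between the 2 lines' TGF-β effects was -0.43 (95% interval -1.005 to 0.14, adjusted p = 0.567). Across the 8 libraries the log2(FPKM + 1) of Mras and Rras correlated at r = 0.908, a description in which all points share the TGF-β contrast given above.

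Averaged over both lines, in the comparison added after the data had been seen, Rras rose by 0.69 (SE 0.12, limma adjusted p = 0.00898) and Mras by 0.65 (SE 0.12, adjusted p = 0.0141), higher in 4 of 4 TGF-β libraries than in any library without. In the same comparison 12.3% of the 9100 genes were called. The rise of Mras lost the call without the first or second EpH4 library with TGF-β (adjusted p = 0.0806 and 0.0526), without the second untreated EpH4 library (0.0544) or the first untreated EpRas library (0.05), and that of Rras without the first EpH4 library with TGF-β (0.0581).

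Rras2, encoding R-Ras2 or TC21, the R-Ras relative that shares most effectors with H-Ras, held 44.5 and 34.2 FPKM in untreated EpH4 and 41.1 and 53.9 FPKM in untreated EpRas. With TGF-β it held 28.8 and 28.3 FPKM in EpH4 and 51.9 and 35.0 FPKM in EpRas, so both EpRas libraries were above both EpH4 libraries only in that condition. The differences of 0.26 without and 0.56 with TGF-β did not pass (limma adjusted p = 0.498 and 0.142), and neither did the average of 0.41 over both conditions (95% interval 0.01 to 0.81, adjusted p = 0.104). Without the second EpRas library with TGF-β the average was 0.55 and passed (limma adjusted p = 0.0375).

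The sum of the 5 Ras genes (Hras1, Nras, Rras, Rras2 and Mras) was nearly the same in the lines. It was 252.8 ± 19.3 FPKM in untreated EpH4 and 253.6 ± 18.0 FPKM in untreated EpRas (SD, n = 2), and 305.1 ± 3.96 FPKM and 307.5 ± 5.16 FPKM with TGF-β. Hras1 made up 31.5 to 43.1% of the sum in the 4 EpH4 libraries and 34.3 to 47.5% in the 4 EpRas libraries. Rras made up 28.5 to 33.9% in the 4 untreated libraries and 35.7 to 46.8% in the 4 with TGF-β. The ratio of Rras to Hras1 was above 1 in both EpH4 libraries with TGF-β (1.49 and 1.30) and in the first EpRas library with TGF-β (1.04), and below 1 in the other 5. In the siRNA table the order with siNC was the reverse, with 296.3 FPKM without and 229.2 FPKM with TGF-β, whereas the sums were higher with TGF-β for pair 1 (237.4 and 276.5 FPKM) and pair 2 (210.6 and 264.6 FPKM). These sums are a description, with no test.

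**Figure D2:**
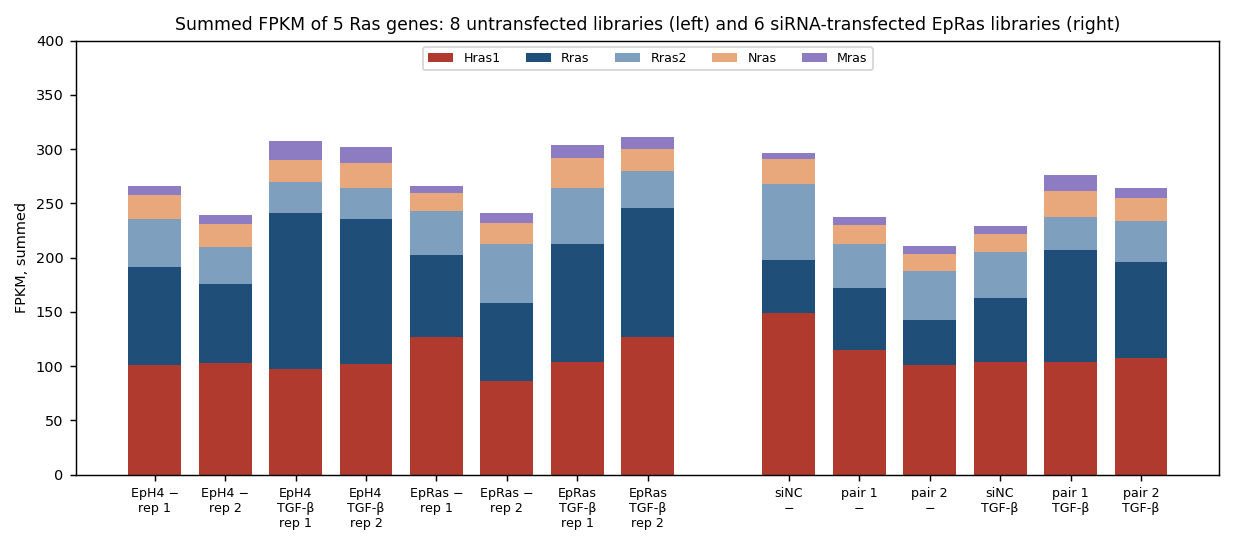
Summed FPKM of Hras1, Rras, Rras2, Nras and Mras, stacked, in each of the 8 untransfected libraries and, from a separate Cuffdiff run, the 6 siRNA libraries. The untransfected sums lie between 239.1 and 311.2 FPKM, with higher sums in the libraries with TGF-β of both lines and a larger Rras share there. With siNC the sum is lower with TGF-β (229.2 FPKM) than without (296.3 FPKM).

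Araf encodes A-Raf, a Raf kinase, and was lower in EpRas. Its libraries held 24.8 and 26.8 FPKM in untreated EpH4 and 18.1 and 15.5 FPKM in untreated EpRas, and 31.3 and 29.7 FPKM against 20.2 and 13.9 FPKM with TGF-β. In both conditions each EpRas library was below each EpH4 library. The difference was -0.59 on the log2 scale without TGF-β (SE 0.20, limma adjusted p = 0.0846) and -0.83 with TGF-β (SE 0.20, adjusted p = 0.0248), so only the latter passed. Averaged over both conditions, the comparison added later, it was -0.71 (SE 0.14, adjusted p = 0.0078), and there it stayed below 0.05 with each of the 8 libraries left out in turn (adjusted p 0.00311 to 0.0392). The call with TGF-β alone was lost without the first or second EpH4 library with TGF-β (adjusted p = 0.148 and 0.114) or the second EpRas library with TGF-β (0.0507), and in a fit of only these 2 groups (0.0773). The locus deposited for Araf, chrX:20848543-20920918, runs beyond the annotated gene end at 20860519, and the lower end of the Cuffdiff interval of Araf was 0 in 8 of 8 untransfected libraries.

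Braf, encoding B-Raf, the Raf kinase with the strongest basal activity, was the least abundant of the 8 genes in every library. It held 2.16 and 1.49 FPKM in untreated EpH4, 1.68 and 1.86 FPKM in EpH4 with TGF-β, 0.88 and 1.26 FPKM in untreated EpRas, and 1.62 and 0.991 FPKM in EpRas with TGF-β. It did not reach 5 FPKM in any library and was not tested. Without TGF-β both EpRas libraries were below both EpH4 libraries, which is given as values only. An exon of Braf shares 146 bases with Ndufb2 on the opposite strand, which was at 54.9 to 97.4 FPKM, and whether strand was used in counting is not given in the sources used here, so reads of the 2 genes in that stretch may not have been told apart. Araf shares 9 bases with Syn1, at 0.0422 to 0.8 FPKM.

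Rasa1 encodes p120 RasGAP, which accelerates GTP hydrolysis by wild-type Ras proteins, and it was higher in EpRas. In untreated cells EpH4 held 13.0 and 12.2 FPKM and EpRas 19.7 and 22.9 FPKM. With TGF-β EpH4 held 17.0 and 18.3 FPKM and EpRas 39.3 and 26.3 FPKM, and the groups did not overlap in either condition. The differences were 0.71 without TGF-β (SE 0.21, 1.69-fold between the means, limma adjusted p = 0.0567) and 0.83 with it (SE 0.21, 1.86-fold, adjusted p = 0.0279), of which the second passed. Averaged over both conditions, the comparison added later, the difference was 0.77 (SE 0.15, adjusted p = 0.00654), and it kept an adjusted p of 0.00211 to 0.0347 with each library left out in turn. The call with TGF-β alone was lost without the first or second EpH4 library with TGF-β (adjusted p = 0.163 and 0.117) or the first EpRas library with TGF-β (0.0679), with the replicate block (0.0531) and in a fit of only these 2 groups (0.0864). With TGF-β Rasa1 was higher by 0.45 in EpH4 and by 0.58 in EpRas, without overlap in either line, but neither difference passed (adjusted p = 0.238 and 0.234). Leaving out the second EpRas library with TGF-β brought the difference in EpRas to 0.86 (adjusted p = 0.0471). Rasa1 shares 12 exonic bases with Ccnh on the opposite strand, at 9.04 to 18.1 FPKM.

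**Figure D3:**
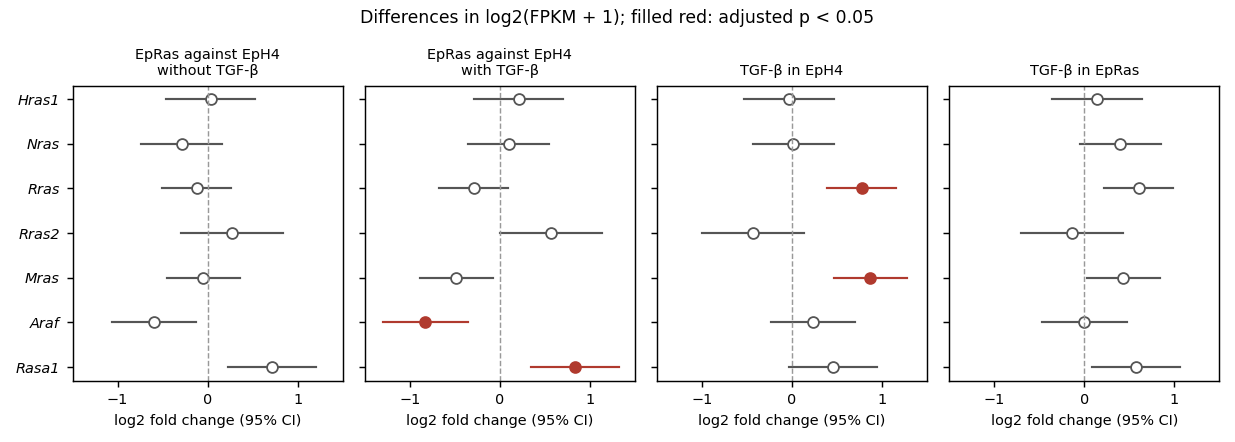
Differences in log2(FPKM + 1) of the 7 genes tested, with 95% intervals, in 4 comparisons of the 8 untransfected libraries (a negative value in the 2 left panels is lower in EpRas). Filled red points passed an adjusted p of 0.05: Araf and Rasa1 between the lines with TGF-β, and Rras and Mras for TGF-β in EpH4.

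Counted over the 7 genes tested, 0 were called by limma between the lines without TGF-β, where 17.6% of all 9100 genes were called. Of the 7, 2 (Araf and Rasa1) had an unadjusted limma p under 0.05, as did 2970 of the 9100 genes. A Tukey-Kramer test on FPKM called 0 of the 7. With TGF-β 2 of 7 were called, 1 higher (Rasa1) and 1 lower (Araf), against 21.3% of all genes. The Tukey-Kramer test also called 2 there, Araf and Mras, both lower in EpRas, and did not call Rasa1. In the average of both conditions the same 2 of 7 were called, against 33.4% of all genes. TGF-β changed 2 of 7 in EpH4 (Rras and Mras, both higher), against 9.4% of all genes, a count that fell to 0 without any 1 of the 4 EpH4 libraries and with the replicate block. In EpRas it changed 0 of 7, against 3.82%. There 3 (Rras, Mras and Rasa1) had an unadjusted limma p under 0.05, as did 1442 of the 9100 genes. A Tukey-Kramer test on FPKM called 1 of the 7 (Rras). No member (0 of 7, and 0 with an unadjusted p under 0.05) differed between the lines in its TGF-β effect, against 0.802% of all genes. Of all 9100 genes, 990 had an unadjusted limma p under 0.05 there. The median difference between the lines over the 7 genes was -0.05 without and 0.10 with TGF-β, beside -0.00311 and -0.00766 over all genes tested.

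Knockdown was measured in EpRas cells with 1 library for each condition, so the following values have no replicate error and no test. Both pairs are set against the same siNC library in each condition, so their agreement is not independent. Without TGF-β, Etv4 fell from 57.5 FPKM with siNC to 11.6 with pair 1 and 27.9 with pair 2, and with TGF-β from 64.3 to 12.6 and 18.9 FPKM. Etv5 went from 8.85 to 1.61 and 1.26 FPKM without TGF-β, and from 5.34 to 1.24 and 1.203 FPKM with it. Both targets were thus at 0.142 to 0.485 of siNC in all 4 knockdown libraries.

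Hras1 without TGF-β stood at 149 FPKM with siNC, 114.5 with pair 1 and 101 with pair 2, that is at 0.769 and 0.677 of siNC. With TGF-β the corresponding libraries held 104, 103.5 and 108 FPKM, so the lower values after knockdown were seen in 1 of the conditions only. Rras2 was the member with the lowest ratio after both pairs without TGF-β, at 70.6 FPKM with siNC, 41.1 with pair 1 and 45.0 with pair 2 (0.581 and 0.637 of siNC). With TGF-β its values were 41.9, 31.0 and 37.8 FPKM. Untransfected, untreated EpRas cells, from a separate Cuffdiff run, were below siNC for both genes. They held 126.5 and 85.9 FPKM of Hras1 and 41.1 and 53.9 FPKM of Rras2. The part of the siNC library in these ratios was not tested. Rras2 was the only 1 of the 7 genes with at least 5 FPKM that was past 1.5-fold with both pairs without TGF-β, where 14.2% of 9094 genes were, and it was not past 2-fold.

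Rras showed the reverse with TGF-β. Without TGF-β the libraries with siNC, pair 1 and pair 2 held 48.8, 57.2 and 41.9 FPKM. With TGF-β they held 59.2, 103 and 88.3 FPKM, where the ratios to siNC were 1.74 and 1.49. Pair 2 was therefore just under 1.5-fold, and 0 of the 7 genes were past it with both pairs under TGF-β, against 12.5% of all genes. Untransfected EpRas cells, from the separate Cuffdiff run, held 75.8 and 72.4 FPKM of Rras without and 108 and 118 FPKM with TGF-β. These values were above siNC and both pairs in each condition. Mras held 5.41, 7.09 and 7.43 FPKM in the untreated libraries and 7.43, 14.9 and 9.83 FPKM in the treated ones, above siNC in all 4 knockdown libraries. Both Rras and Mras were higher with than without TGF-β under each of the 3 transfections, by 1.21-, 1.81- and 2.11-fold for Rras and by 1.37-, 2.10- and 1.32-fold for Mras. No member (0 of 7) reached 1.5-fold in all 3, against 5.14% of all genes.

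**Figure D4:**
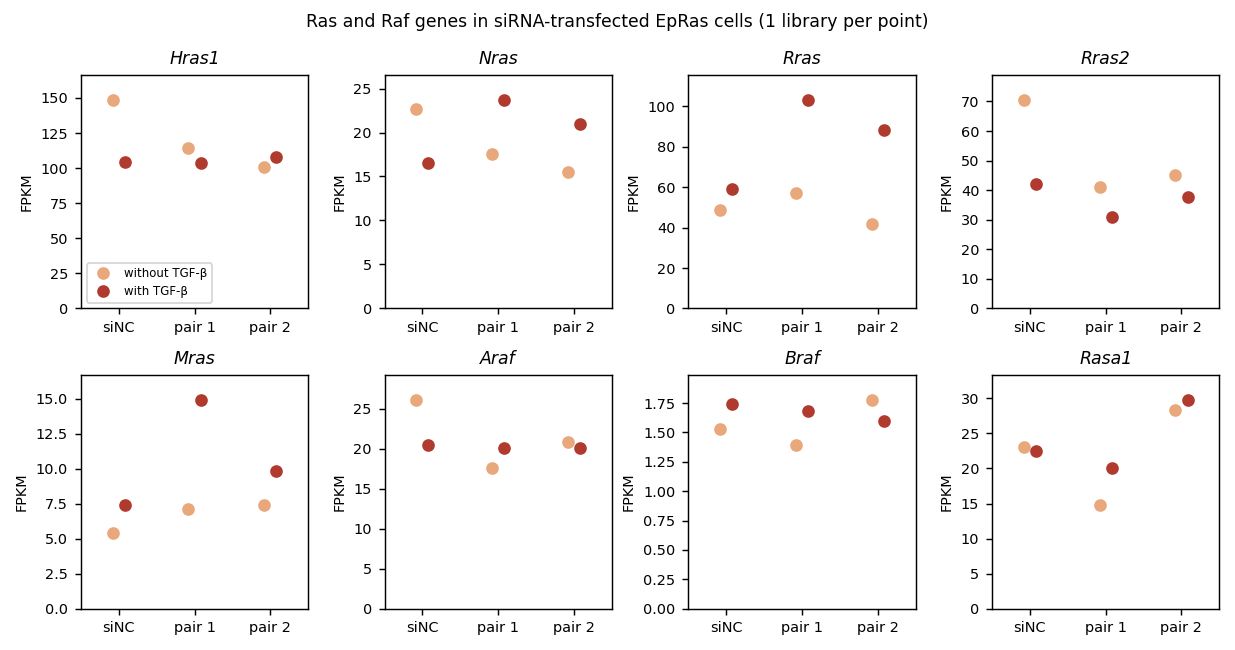
FPKM (linear axes from 0) of the 8 genes in EpRas cells transfected with siNC or with either siRNA pair, 1 library per point, without and with TGF-β. Rras with TGF-β is higher with both pairs (103 and 88.3 FPKM) than with siNC (59.2 FPKM), and Rras2 without TGF-β is lower with both pairs than with siNC. Both pairs are set against the same siNC library in each condition.

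Nras values with siNC, pair 1 and pair 2 were 22.7, 17.6 and 15.5 FPKM in untreated cells, followed by 16.6, 23.7 and 21.0 FPKM under TGF-β, below siNC with both pairs in the first case and above it in the second. Rasa1 went in opposite directions with the 2 pairs, with 23.1, 14.7 and 28.3 FPKM in untreated cells, then 22.6, 20.02 and 29.8 FPKM under TGF-β. Araf values were 26.1, 17.6 and 20.8 FPKM in untreated cells, and the 3 libraries under TGF-β held between 20.1 and 20.4 FPKM. Braf stayed between 1.39 and 1.78 FPKM in all 6 libraries. 

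The surrounding pathway was followed in 6 lists of other genes by role, of which 64 of 100 genes listed in the table were tested. Between the lines without TGF-β, 10 of the 64 were called by limma, 6 higher and 4 lower in EpRas, and with TGF-β 18 were called, 6 higher and 12 lower. With 1 library left out at a time the counts were 3 to 6 without and 6 to 19 with TGF-β, so calls of single pathway genes in 1 condition depend on the libraries. All counts by role between the lines stand beside 17.6% of all genes called without and 21.3% with TGF-β, and with 4 to 17 genes tested in a list they are descriptions. Counts by role of genes with an unadjusted p under 0.05 without TGF-β stand beside 2970 of all 9100 genes. The median difference over the 64 genes was -0.10 without and -0.07 with TGF-β.

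Other RasGAPs were higher in EpRas where they were called. Of 4 tested, 2 were called, both higher, in each condition. Rasa3, a membrane-bound GAP for Ras and Rap, was at 19.9 ± 0.284 FPKM in untreated EpH4 and 61.6 ± 1.00 FPKM in untreated EpRas (SD, n = 2), a difference of 1.58 (limma adjusted p = 0.000891), and it differed by 1.22 with TGF-β (adjusted p = 0.00213). Rasal2 was at 2.10 ± 0.231 and 4.04 ± 0.821 FPKM (SD, n = 2), a difference of 0.69 (limma adjusted p = 0.0363) and of 0.68 with TGF-β (adjusted p = 0.0339).

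Exchange factors and adaptors were called in 1 of 6 tested without TGF-β and in 2 of 6 with it. The called genes, a phosphatase and an adaptor, were lower. Ptpn11, encoding the phosphatase Shp2 that relays receptor signals to Ras, was at 74.7 and 39.8 FPKM in untreated EpH4 and EpRas, a difference of -0.89 (limma adjusted p = 0.00674), and differed by -0.86 with TGF-β (adjusted p = 0.00589). Shc1, an adaptor between receptors and Grb2, differed by -0.80 with TGF-β (adjusted p = 0.0494) and by -0.03 without it (adjusted p = 0.938). The exchange factor Sos2, named after its values were seen, differed the other way, by 0.56 without and 0.55 with TGF-β (limma adjusted p = 0.111 and 0.105). It was higher in EpRas in the average of both conditions (0.55, limma adjusted p = 0.0252). There 2 of the 6 were called, 1 in each direction, where 33.4% of all genes were called.

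Of 12 genes tested in the list of kinases and scaffolds of the Raf to ERK cascade, 0 were called without TGF-β by limma (3 had an unadjusted p under 0.05) and 4 with it, all lower. Pebp1, encoding an inhibitor of Raf, had means of 670.9 (EpH4) and 249.9 FPKM (EpRas) with TGF-β, the EpRas libraries lying at 145.7 and 354 FPKM, a difference of -1.56 (adjusted p = 0.0265). Cnksr1, a scaffold of Ras and Raf, differed by -1.16 (adjusted p = 0.00494), and Lamtor3, a scaffold for MEK, by -0.96 (adjusted p = 0.047). The remaining one, Map2k1, encoding MEK1, lies outside the rule for named genes and differed by -0.69 (adjusted p = 0.0492). Without TGF-β, Pebp1 differed by -1.33 (limma adjusted p = 0.0542), just short of a call. Its untreated libraries held 820.8 and 648.7 FPKM in EpH4 and 330.9 and 254.7 FPKM in EpRas, without overlap.

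Other effectors of Ras were called in 7 of 17 tested without TGF-β (4 higher, 3 lower) and 8 with it (3 higher, 5 lower). Rgl1, an exchange factor for Ral, was at 1.85 FPKM in untreated EpH4 and 10.2 FPKM in untreated EpRas, a difference of 1.97 (limma adjusted p = 0.000415). Rin1, an effector that also acts on Rab5, differed by 0.88 (adjusted p = 0.00973) and Rassf5, of the Ras association domain family, by 0.79 (adjusted p = 0.0301). Rassf8 differed by -0.85 (adjusted p = 0.0186), Tiam1, an exchange factor for Rac, by -0.77 (adjusted p = 0.0159) and Pik3cb, a catalytic subunit of PI3-kinase, by -0.65 (adjusted p = 0.0301). All 6 were called in the same direction with TGF-β, with differences of 1.76, 1.15, 1.00, -0.64, -1.09 and -0.68.

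Of the 14 other GTPases of the Ras branch tested, 0 were called without TGF-β by limma (1 had an unadjusted p under 0.05) and 1 with it, Rap2a, with means of 8.75 (EpH4) and 14.7 FPKM (EpRas), a difference of 0.68 (limma adjusted p = 0.0197). Of the 11 genes of Ras membrane processing and delivery, all tested, 0 were called without TGF-β (1 had an unadjusted p under 0.05) and 1 with it, Zdhhc9, a subunit of the palmitoyltransferase of H-Ras and N-Ras, which differed by -0.65 (limma adjusted p = 0.0387).

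**Figure D5:**
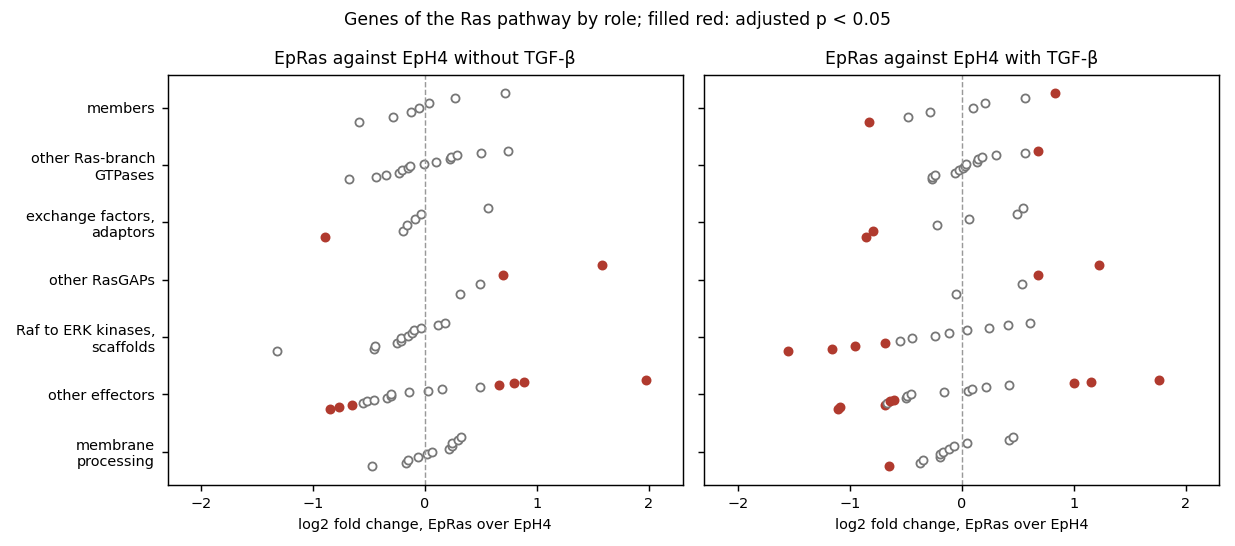
Differences in log2(FPKM + 1) between EpRas and EpH4 for the 7 genes described here (top) and the 64 other genes of the Ras pathway tested, by role, without (left) and with TGF-β (right), 1 point per gene. Filled red points passed an adjusted p of 0.05: 0 and 2 of the 7, and 10 and 18 of the 64.

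Averaged over both conditions, 18 of the 64 pathway genes were called between the lines (7 higher, 11 lower), against 33.4% of all genes, and averaged over both lines 10 were called for TGF-β (3 higher, 7 lower), against 12.3%. Both counts changed with the library left out. For TGF-β, 5 of the 64 were called in EpH4, against 9.4% of all genes, a count that was 0 to 3 with 1 library left out at a time. Rin2, an effector with a Rab5-directed domain, was higher by 1.18 (limma adjusted p = 0.00949), and Rassf3, Rassf6, Rassf8 and Cnksr3 were lower, with differences of -0.97, -0.93, -1.10 and -1.08 (adjusted p = 0.00672, 0.0233, 0.0111 and 0.0184). In EpRas 1 was called, Rassf8 with -0.88 (limma adjusted p = 0.0447), against 3.82% of all genes, and 0 to 3 with 1 library left out at a time. These were named after their values were seen. For the difference between the lines in their TGF-β effects 0 were called by limma (4 had an unadjusted p under 0.05, as did 990 of all 9100 genes). After knockdown, 4 of 67 pathway genes with at least 5 FPKM (Cnksr1, Dab2ip, Rassf1 and Rhebl1) were past 1.5-fold with both pairs without TGF-β, 1 higher and 3 lower, against 14.2% of all genes, and 10 with it, 5 in each direction, against 12.5%, again from 1 library a condition.

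The 5 genes whose log2(FPKM + 1) most resembled that of Hras1 over the 8 untransfected libraries were Rab21 (r = 0.92), 4930455C21Rik (0.914), 1110008F13Rik (0.901), Cdkn2aip (0.897) and 4930404N11Rik (0.896), out of 9100. For Rab21, which encodes a GTPase of endosomes, the libraries ran from 28.7 FPKM in the second untreated EpRas library, which was also the lowest for Hras1, to 52.0 FPKM in the first, and within EpH4 from 37.8 to 46.1 FPKM. All 5, like Hras1, were higher in the first untreated and the second TGF-β EpRas library than in the other EpRas libraries. The likeness thus follows differences between EpRas libraries of the same group, and it is a description over 8 libraries.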

How the data were processed

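RNA was measured by RNA-seq in 14 libraries. The authors prepared directional libraries from poly(A) RNA, sequenced them on the Ion Proton, aligned reads to mm10 with TopHat2 (2.0.11) and Bowtie2 (2.2.2.2) per the labels, and deposited FPKM from Cuffdiff (Cufflinks 2.2.0) with its interval, in 2 tables made separately for untransfected and siRNA-transfected cells. How strand entered the counting and how Cuffdiff scaled the libraries are not given in the sources used here. FPKM is relative to the library total, so more reads of a few genes lower the others. The libraries summed to 502262 to 633763 FPKM (untransfected).

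Genes that reached 5 FPKM in any library and had an OK status (3 and 2 genes without it were left out) were tested within the untransfected table: 9100 genes, limma 3.58.1 in R 4.3.3 on log2(FPKM + 1), 1 mean per group over all 8 libraries, Benjamini-Hochberg adjustment over all genes, called at adjusted p below 0.05. Fold changes on this scale understate changes of low genes. Averaged comparisons were added after the data were seen. The siRNA table (9094 genes) has 1 library per condition, and genes were counted where both pairs were at least 1.5-fold from siNC in 1 direction. The study describes the 2 libraries of an untransfected group as biological replicates, and the labels do not name separate cultures. The limma p-values rest on the spread between libraries of a group, pooled over the 4 groups and moderated over all genes tested. That spread was unequal. The median SD of log2(FPKM + 1) was 0.146 and 0.0914 in EpH4 without and with TGF-β, and 0.147 and 0.214 in EpRas. Counts called for TGF-β in the 2 lines therefore do not reflect each line's own spread. The script was tested on simulated data. Reads per FPKM were estimated from the lowest values of genes with 1 transcript over 2500 bases (tolerance 5%), and counting error was not added to any interval. Transcript lengths and exon overlaps came from GENCODE vM21 and promoters from RefSeq (GRCm38.p6). All 8 members are named. From each pathway list the text names genes called between the lines, at most 3 per direction by size without TGF-β, and the 5 nearest genes in pattern. Members, lists and rules were chosen with earlier results of these data known. No per-sample column was left unused (0). Alternatives (pseudocounts of 0.1 and 5, filters, a mean-variance trend, median centring, only the groups compared, replicate block, leaving out libraries) are in the closing section. Some genes of the pathway are not reported here.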

Additional observations from a re-analysis of the deposited data

How the results depend on the processing

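With 2 libraries per group the limits are wide, and a difference in Hras1 smaller than its interval was not detectable. Every call of a member within 1 line or condition depended on which libraries and which model were used, whereas the averaged differences of Araf and Rasa1 between the lines passed in all alternatives run. Values of genes near the filter and of Braf rest on few reads. The siRNA values have no replicate. The causes of the changes below were not tested, apart from fewer samples or genes where a setting removes them.

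No paired design is given by the labels, and the deviations of same-numbered replicates correlated between -0.347 and 0.0785 over the 6 pairs of groups, so the numbers were not taken to pair the libraries. The -0.347 was between untreated and TGF-β EpRas, where libraries of opposite number varied partly together. The first untreated and second TGF-β EpRas libraries had the higher FPKM sums (633763 and 628790, against 547865 and 502262). Hras1 was also higher in them (126.5 and 127 FPKM, against 85.9 and 104). A block by replicate number cannot take up such a likeness, and its cause was not tested. With a replicate block, members called between the lines with TGF-β were 1 (Araf, with Rasa1 at adjusted p = 0.0531 by limma) and members called for TGF-β in EpH4 were 0 (Rras 0.0616 and Mras 0.0554). Pathway genes called with the block were 6 between the lines without TGF-β, 0 for TGF-β in EpRas and 6 for TGF-β averaged over both lines.

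A mean-variance trend called 1 member between the lines without TGF-β (Rasa1, limma adjusted p = 0.0455). Fits of only the 2 groups compared called 0 members between the lines with TGF-β, 1 for TGF-β in EpH4, and 8 and 0 pathway genes between the lines with TGF-β and for TGF-β in EpRas. A mean of at least 10 FPKM left pathway counts of 5 (lines without TGF-β), 9 (lines with TGF-β), 1 (TGF-β in EpH4), 11 (lines, averaged) and 4 (TGF-β, averaged). No filter gave 9 pathway genes for TGF-β in EpH4 and 0 in EpRas, and a pseudocount of 5 FPKM gave 0 in EpRas. Tukey-Kramer on FPKM called 1 member for TGF-β in EpRas (Rras) and 2 between the lines with TGF-β (Araf and Mras, not Rasa1), and at 2-fold 0 members passed with both siRNA pairs without TGF-β. After median centring the TGF-β difference was -0.0108 for Nras in EpH4 and -0.00747 for Araf in EpRas, the only reversals outside the fits that left out a library.

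Leaving out 1 library at a time, where a lone library was assumed to vary like the others, members called ranged from 0 to 1 (lines with TGF-β), fell from 2 to 0 in each such fit (TGF-β in EpH4, where Rras and Mras were both lost), and ranged from 0 to 1 (TGF-β in EpRas) and from 0 to 3 (TGF-β, averaged). Pathway genes called ranged from 3 to 6 and from 6 to 19 between the lines without and with TGF-β, from 0 to 3 for TGF-β in EpH4 and in EpRas, and from 3 to 10 for TGF-β averaged. Differences that changed sign in these fits, none of them called with all 8 libraries, had the following ranges on the log2 scale. Between the lines without TGF-β they were -0.244 to 0.309 for Hras1, -0.282 to 0.0343 for Rras and -0.222 to 0.12 for Mras, and with TGF-β -0.113 to 0.31 for Nras. For TGF-β in EpH4 they were -0.0713 to 0.0050 for Hras1 and -0.0691 to 0.0942 for Nras. For TGF-β in EpRas they were -0.136 to 0.417 for Hras1, -0.419 to 0.137 for Rras2 and -0.254 to 0.258 for Araf. For the difference of the TGF-β effects they were -0.102 to 0.451 for Hras1, -0.158 to 0.404 for Rasa1 and -0.489 to 0.0239 for Araf. Averaged over conditions they were -0.0187 to 0.258 for Hras1 and -0.202 to 0.0101 for Nras, and averaged over lines -0.0843 to 0.192 for Hras1 and -0.0101 to 0.246 for Araf.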
